A study of Mus musculus with 4 samples.

Results

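The genes described here are 10 transcription factors of the limb and craniofacial mesenchyme, namely Prrx1, Prrx2, Twist1, Twist2, Shox2, Tbx4, Tbx5, Tbx15, Pitx1 and Meis2. Their chromatin accessibility was read from every region of the deposited ATAC-seq count table that overlapped 1 of these genes or the 25 kb on either side of it (GENCODE M21 annotation, mouse build GRCm38). This gave 185 regions of 255864 in the table, and 10 of 21911 protein-coding genes. No region lay in the windows of more than 1 member, and 166 of the 185 were nearer to a transcript start of the member itself than to one of another gene. By annotation, 100 regions were intronic, 58 intergenic, 19 within 1 kb of a transcript start of the member or another gene (called promoter regions) and 8 exonic.

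The cells were primary osteoblasts of 3-day-old C57BL/6 mice, which the study took from calvarial (skull vault) bone and digested with collagenase and dispase. The WT group was labelled wild type, and whether these animals carried Cre or floxed alleles was not given in the sources used here. The TCKO group carried the Prx1-Cre transgene with both copies of Tet1, Tet2 and Tet3 floxed (written fl/fl in the labels), and Cre made under Prrx1 regulatory sequence removes the 3 TET genes from the early mesenchyme of the limb bud and part of the head. TET proteins oxidise methylated cytosine in CpG dinucleotides, and the comparison asks how chromatin accessibility differed in their absence. There were 2 samples per genotype in the labels, but the authors merged them into 1 count column per genotype before deposit, so no spread between samples could be computed and no test was made. Every interval given is a 95% interval of counting error only. In such bulk samples, fewer cells with an open region and less opening per cell cannot be told apart.

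ATAC-seq uses a transposase to cut and tag DNA that is free of nucleosomes, and the count of a region is the number of reads over it. The table held 56898657 counts for WT and 34608167 for TCKO, so TCKO counts were multiplied by 1.64 before comparison. The quantity compared is the log2 ratio of scaled TCKO to WT counts with 1 count added to each, in which 1 stands for a 2-fold rise and 0 for no difference. Each of the 10 osteoblast marker genes examined had a listed promoter region, from 46.5 to 687 counts per kb in WT and from 41.9 to 653 scaled counts per kb in TCKO. Of the other cell types the culture could hold, promoter regions were listed for 5 of 8 macrophage or osteoclast genes (0 to 96.1 counts per kb in WT, 0 to 129 in TCKO), 6 of 8 endothelial genes (0 to 199 and 0 to 284), 1 of 8 skeletal muscle genes (Des) and 6 of 6 keratinocyte genes (10.7 to 72.0 in WT). The median of all promoters was 180 counts per kb in WT. The part that other cells had in the values of the members was not tested.

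The members belong to families that pattern the early mesenchyme. Prrx1 and Prrx2 are paired-related homeobox factors that mark limb bud and cranial mesenchyme and keep progenitor cells from differentiating early. Twist1 and Twist2 are basic helix-loop-helix proteins that pair with E proteins and restrain the osteoblast factor RUNX2. Tbx4, Pitx1 and Tbx5 are known for setting hindlimb and forelimb identity, Tbx15 and Shox2 shape the skeleton, and Meis2 encodes a TALE homeodomain protein that partners HOX and PBX proteins. Limb identity genes are not usually active in cells of the skull.

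The sequences that the largest difference in this set turned on lie just before the first exon of Prrx1, which is read from the minus strand of chromosome 1. Both windows are given from the plus strand of GRCm38, around the highest TCKO summits of the regions at chr1:163314015-163314260 and chr1:163314373-163315426, with CpG dinucleotides in capitals, since these are the sites on which TET proteins act. The first window is chr1:163314015-163314190 and holds 6 CpG, and the second is chr1:163314454-163314653 and holds 4.
Prrx1 upstream, near window: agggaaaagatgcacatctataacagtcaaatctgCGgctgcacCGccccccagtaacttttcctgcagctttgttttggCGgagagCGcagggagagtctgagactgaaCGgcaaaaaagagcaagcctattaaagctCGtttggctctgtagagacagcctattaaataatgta
Prrx1 upstream, far window: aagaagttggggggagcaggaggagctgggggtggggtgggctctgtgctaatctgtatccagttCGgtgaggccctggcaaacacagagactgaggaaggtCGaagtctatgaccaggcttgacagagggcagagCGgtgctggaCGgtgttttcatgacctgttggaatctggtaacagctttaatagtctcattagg
For comparison, the bases directly before the starts of Prrx1, Twist1 and Shox2 are given on the strand of each gene from RefSeq (GRCm38.p6), again with CpG in capitals. Of the 7 members found in the RefSeq promoter table, Prrx1 had the largest promoter ratio and Twist1 and Shox2 those nearest 0, and Tbx4 had no promoter ratio. The Shox2 stretch lies between the 2 regions that gave its ratio, chr3:66981093-66981527 and chr3:66982442-66982837, and in neither of them. The stretches are chr1:163313711-163313900 on the minus strand, chr12:33957421-33957670 on the plus strand and chr3:66981772-66982021 on the minus strand.
Prrx1 before the start: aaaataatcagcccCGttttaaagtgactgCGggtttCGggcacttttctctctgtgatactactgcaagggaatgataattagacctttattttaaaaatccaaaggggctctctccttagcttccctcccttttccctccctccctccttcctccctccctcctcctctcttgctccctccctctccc
Twist1 before the start: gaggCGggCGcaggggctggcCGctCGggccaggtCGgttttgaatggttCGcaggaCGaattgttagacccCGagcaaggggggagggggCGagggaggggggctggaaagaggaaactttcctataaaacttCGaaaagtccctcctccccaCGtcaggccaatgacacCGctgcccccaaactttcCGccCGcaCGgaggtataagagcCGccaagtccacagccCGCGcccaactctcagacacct
Shox2 before the start: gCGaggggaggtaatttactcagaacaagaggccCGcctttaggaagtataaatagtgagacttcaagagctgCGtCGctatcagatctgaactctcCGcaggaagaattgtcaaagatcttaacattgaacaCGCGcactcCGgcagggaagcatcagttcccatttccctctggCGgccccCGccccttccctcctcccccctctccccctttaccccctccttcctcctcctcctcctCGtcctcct
In the 250 bases before the start, Prrx1 held 4 CpG, Tbx4 6, Meis2 7, Shox2 11, Twist1 18, Prrx2 21 and Twist2 23, against a median of 6 over the 32851 promoters of that table. The promoter of Prrx1 was the poorest in CpG of the 7.

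Taken as a set, and after scaling to the total count, the regions of the members hardly differed between genotypes, apart from a stretch before Prrx1. This scaling makes the total counts of both genotypes equal, so only differences relative to other regions can be read. The members' regions held 41723 WT and 25524 TCKO counts, with a median of 110 counts per region in WT and 73 in TCKO before scaling. Their median log2 ratio was −0.03 (−0.13 to 0.05), against 0.06 over all regions. Of the 185 regions 95 had a ratio below 0 and 90 above. In TCKO 5 of the 185 lay 2-fold or more below WT, where the background over the table was 4.51%, and 14 (7.57%) lay 2-fold or more above it, where the background was 12.3%. With the whole interval past 2-fold, 0 member regions were lower, against a background of 0.654% of all regions, and 4 were higher, against a background of 3.82%. The split depended on the scale. Without any scaling, 59 member regions were at least 2-fold lower and 5 higher, where all regions gave 25.6% and 3.17%, and with TCKO counts multiplied by 1.08, the depth ratio recovered from the background of the peak caller, 46 were lower and 6 higher, where all regions gave 19.9% and 3.91%. These scalings also moved the median of all regions to −0.64 and −0.54, and the median of the members to −0.74 and −0.63.

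**Figure D1:**
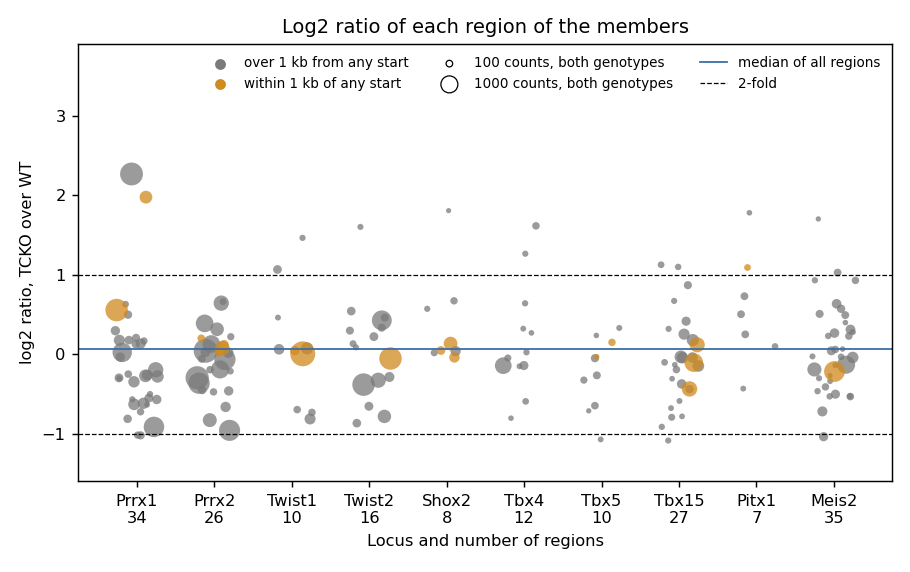
Log2 ratio of scaled TCKO to WT counts (vertical axis) for each of the 185 regions, by member gene (horizontal axis), with dashed 2-fold lines and the median of all regions in blue. The area of a point grows with its counts, and points within 1 kb of any transcript start are orange. The points of each gene lie on both sides of 0 or near it, and the highest with many counts are the regions before the start of Prrx1, at 2.27 and 1.97.

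Most regions past 2-fold were weak. The 12 higher regions outside Prrx1 held at most 221 counts over both genotypes, and at most 124 in TCKO. A peak summit in TCKO only was found in 11 of the 14 higher regions, and 4 of the 5 lower regions had one in WT only. Summits and counts come from the same reads, so the summits are not a separate measure. As the table is the union of both peak lists, a weak region could enter it through the genotype in which it was high. Of the 48 member regions with fewer than 100 counts, 7 (14.6%) were 2-fold or more higher and 2 (4.17%) lower, where all such weak regions of the table gave 21.9% and 6.29%. Over the whole set, 104 regions (56.2%) held a summit in both genotypes, 67 (36.2%) in WT only and 14 (7.57%) in TCKO only, where all regions of the table stood at 56.8%, 33.0% and 10.2%.

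The levels of the 10 loci, given as counts per kb of the gene and its flanks, spanned a wide range. Prrx2 was the most accessible in WT with 119 counts per kb, followed by Prrx1 with 72.4, Twist2 with 55.4 and Twist1 with 52.6. Tbx15 (29.3), Meis2 (20.5), Shox2 (19.1) and Tbx4 (16.1) were intermediate, and Pitx1 (7.20) and Tbx5 (7.02) were lowest. In this order the counting intervals of Twist2 and Twist1, of Meis2 and Shox2, and of Pitx1 and Tbx5 overlapped. The 3 genes of hindlimb and forelimb identity were thus the least accessible of the set. Among 19896 protein-coding loci, Prrx2 stood at the 93.3 percentile of WT level, Prrx1 at 78.9, and Pitx1 and Tbx5 at 18.9 and 18.7. Scaled TCKO levels per kb were 109 for Prrx2, 84.5 for Prrx1, 52.5 for Twist1, 52.2 for Twist2, 28.4 for Tbx15, 21.4 for Shox2, 20.1 for Meis2, 17.0 for Tbx4, 10.5 for Pitx1 and 6.04 for Tbx5. Only the neighbours Twist1 and Twist2, and Meis2 and Shox2, changed places.

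Summed over each locus, the log2 ratios ran from −0.22 at Tbx5 to 0.22 at Prrx1, with Pitx1 above them at 0.55. The median log2 ratio of all protein-coding loci was −0.02. Prrx2, Twist2 and Tbx5 had intervals wholly below it, a share of 3 in 10 against a background of 31.0% of all loci. Prrx1, Shox2 and Pitx1 had intervals wholly above it, again 3 in 10 and against a background of 31.7%. The intervals of Twist1, Tbx4, Tbx15 and Meis2 spanned it. The members as a group were thus called about as often as any protein-coding locus.

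**Figure D2:**
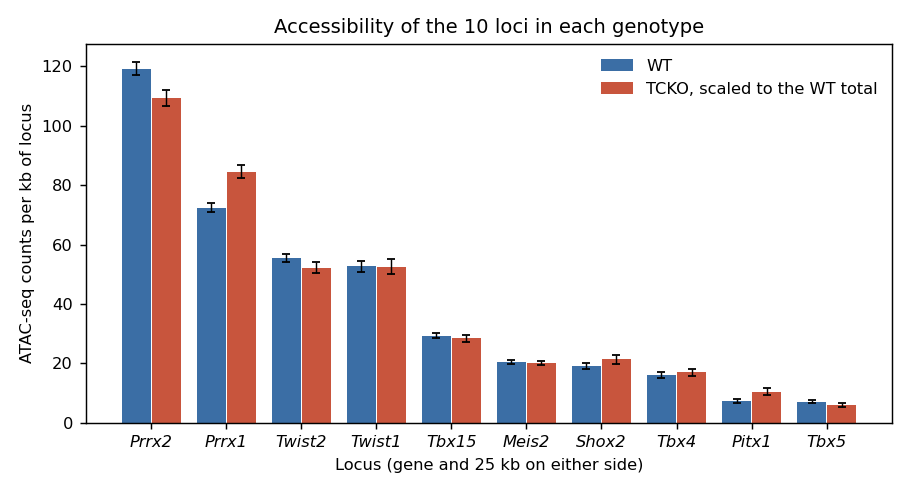
Level of each member locus in WT and scaled TCKO (bars, vertical axis in ATAC-seq counts per kb of the gene and 25 kb on either side) with 95% counting intervals, 1 merged value per genotype. Prrx2 is the highest locus in both genotypes, at 119 and 109 counts per kb, and Prrx1 and Pitx1 are the loci with clearly higher bars in TCKO.

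At Prrx1 (ENSMUSG00000026586, chr1:163245119-163313710, minus strand) the 34 regions held 8581 WT and 6098 TCKO counts. The locus ratio was 0.22 (0.18 to 0.27), at the 84.6 percentile of all loci, but its regions moved in opposite directions. The region over the start, chr1:163313193-163313855, held 953 WT and 851 TCKO counts, a 1.47-fold higher scaled level (log2 ratio 0.55, 0.42 to 0.69). The next region upstream, chr1:163314015-163314260, held 160 and 384 counts, a 3.93-fold higher level (1.97, 1.71 to 2.25), and had a summit in TCKO only. The one after it, chr1:163314373-163315426, held 475 and 1391 counts, a 4.81-fold higher level (2.27, 2.12 to 2.42). Counts before the gene were thus several-fold higher in TCKO, and more so than over the start itself.

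Both upstream regions lay between 305 and 1716 bp before the start, and together went from 635 to 1775 counts (log2 ratio 2.20, 2.07 to 2.33). Per kb, the WT level was 1437 counts in the start region and 650 and 451 in the near and far upstream regions, whereas the scaled TCKO level was 2110, 2566 and 2170, about level over all 3. The 3 regions held 43.1% of the TCKO counts of the locus but 18.5% of its WT counts. Of 44372 regions of the table with at least 500 counts over both genotypes, the upstream regions ranked 2 and 5 by ratio. The near region, with 160 WT and 384 TCKO counts, reached this limit through its high TCKO counts, so its ranks are a description only. Of the 6406 such regions within 2.5 kb before a transcript start they ranked 1 and 2, with the next at 1.76, and 24 of these 6406 (0.375%) were at least 2-fold higher. No other regions of the members with so many counts were past 2-fold.

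The higher ratio stopped at the ends of this stretch. The next region upstream, chr1:163321442-163321695, started 7732 bp before the start and held 51 WT and 25 TCKO counts (log2 ratio −0.30). At the far end of the 25 kb flank, chr1:163337876-163338011 held 82 and 56 counts (0.17), and chr1:163338439-163339212 held 526 and 279 counts (−0.20). The flank beyond the first 2 kb therefore had ratios within their counting intervals of 0. Without the 2 upstream regions, the other 32 regions of the locus went from 7946 to 4323 counts, a ratio of −0.16 (−0.21 to −0.11), and without the start region too the ratio was −0.29 (−0.35 to −0.23). In all, 21 of the 34 regions were below 0. The sign of the locus ratio was thus that of the upstream stretch.

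Both upstream regions kept a log2 ratio above 1 under every scaling tried, while that of the start region changed sign. The log2 ratios of the far upstream, near upstream and start regions were 2.19, 1.90 and 0.48 with the TMM factor, 2.20, 1.91 and 0.49 with DESeq2 size factors, 2.36, 1.95 and 0.66 after loess, 1.66, 1.37 and −0.05 with the depth of the peak caller, and 1.55, 1.26 and −0.16 with no scaling. The pileup at the summits, which is the number of fragments the peak caller stacked there, was likewise higher in TCKO in the far upstream region without scaling. Pileups come from the same reads as the counts and are not a separate measure. Within the far upstream region, WT had summits of 24 and 27 fragments, at 163314893 and 163315206, and TCKO had 44 and 46 at 163314899 and 163315202, as well as summits of 57 fragments at 163314554 and 34 at 163315049 that WT lacked. In the near region the TCKO summit of 39 fragments was at 163314091, and at the start WT reached 58 fragments and TCKO 65. Over the 104 member regions with summits in both genotypes the median log2 ratio of unscaled pileups was −0.39, 86 were lower in TCKO, 14 higher and 4 equal. Each ratio takes the highest summit of each genotype in the region. The far upstream region had the highest ratio of them at 1.08, followed by 0.66 in another region, whereas the start region had 0.16 and the other 22 Prrx1 regions compared ranged from −1.13 to 0.10. In the far upstream region the 2 summits compared lay at different positions, 163314554 in TCKO and 163315206 in WT.

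The background that the peak caller estimated around each summit was higher in TCKO at this place. It was estimated from the same reads, those of this stretch included, and is not a separate measure. The log2 ratio of TCKO to WT background was 0.28 at the far upstream region and 0.17 at the start region, but from −0.89 to −0.02 at the other 22 Prrx1 regions, and it was above 0 in only 10 of the 104 regions. The Prx1-Cre transgene of the TCKO mice carries regulatory sequence copied from Prrx1, and reads from transgene copies and from the Prrx1 gene itself cannot be told apart in these counts.

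**Figure D3:**
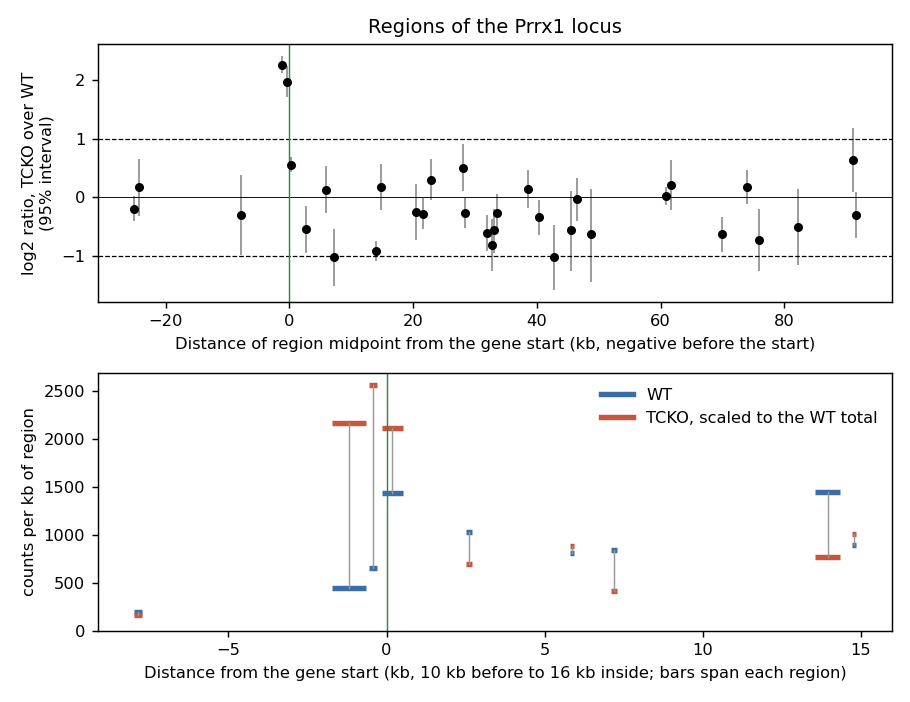
Prrx1 regions by distance from the gene start (horizontal axes, in kb): the log2 ratio of each of the 34 regions with its 95% counting interval (upper panel), and the counts per kb of region in WT and scaled TCKO near the start (lower panel). The regions at 305 to 1716 bp before the start have ratios of 1.97 and 2.27, and most regions elsewhere in the gene lie below 0.

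Inside Prrx1 the largest distal site was lower in TCKO. The intronic region chr1:163299379-163300154 held 1124 WT and 362 TCKO counts, a log2 ratio of −0.92 (−1.09 to −0.75), and its summit pileup was 65 fragments in WT and 41 in TCKO. The core word of RUNX proteins, TGTGGT, was in the central 200 bp of 21.1% of the members' regions and 22.2% of all regions. The 200 bases around the WT summit of this intronic region, chr1:163299580-163299779 on the plus strand, hold that word, shown in capitals.
Prrx1 intron: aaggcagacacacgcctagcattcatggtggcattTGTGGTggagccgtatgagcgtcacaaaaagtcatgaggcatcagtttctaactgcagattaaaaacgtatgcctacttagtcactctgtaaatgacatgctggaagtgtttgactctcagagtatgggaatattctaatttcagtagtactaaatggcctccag
The only Prrx1 regions at least 2-fold lower were also intronic. The region chr1:163306427-163306602 held 148 and 44 counts and another starting at 163270790 held 111 and 33, each with a log2 ratio of −1.02. At this gene the interior and the sequence before the start therefore differed in direction.

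Prrx2 (ENSMUSG00000039476, chr2:30834972-30881251, plus strand) had 26 regions with 11479 WT and 6403 TCKO counts and a locus ratio of −0.12 (−0.17 to −0.08). It had 0 regions past 2-fold in either direction. The window is shared with neighbours. Only 12 regions were nearest to Prrx2, 11 were nearest to Ptges, a prostaglandin E synthase gene (3323 and 1910 counts, −0.08), and the region with most counts over both genotypes lay in the Asb6 gene, chr2:30827508-30828549, with 1262 and 790 counts (0.04). The promoter region of Prrx2 with most counts, chr2:30845248-30845994, lay at an internal transcript start, 10649 bp inside the gene, and held 442 and 283 counts (0.07, −0.14 to 0.29). Before the outermost start, chr2:30834479-30834622 held 159 and 105 counts (0.12, −0.24 to 0.47) and chr2:30833340-30834199 held 1018 and 591 (−0.07, −0.21 to 0.08). The intervals of all 3 regions included 0.

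The regions of Prrx2 differed from each other more than the locus as a whole did. The intronic region chr2:30870794-30871420 held 1203 WT and 376 TCKO counts, a log2 ratio of −0.96 (−1.13 to −0.79), with pileups of 70 and 34 fragments. This was the lowest ratio of any member region with at least 500 counts. The plus strand around its WT summit, chr2:30870888-30871087, holds the same RUNX word on the other strand, in capitals.
Prrx2 intron: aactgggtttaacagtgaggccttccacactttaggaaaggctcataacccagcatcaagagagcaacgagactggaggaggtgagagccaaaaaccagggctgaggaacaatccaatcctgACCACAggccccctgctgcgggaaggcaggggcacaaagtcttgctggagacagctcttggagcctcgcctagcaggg
A region starting at 30875672, nearest to Ptges, was lower as well, with 492 and 168 counts (−0.83) and pileups of 48 and 15 fragments. In the other direction, chr2:30842626-30843060 held 413 and 392 counts, a ratio of 0.64 (0.44 to 0.84), and the highest ratio was that of the weak region chr2:30886310-30886448, with 60 and 58 counts (0.66).

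Twist1 (ENSMUSG00000035799, chr12:33957671-33959829, plus strand) was the member that differed least after scaling to the total count. Its 10 regions held 2744 WT and 1667 TCKO counts, a locus ratio of −0.0017 (−0.09 to 0.09). The CpG-dense region over the start, chr12:33956773-33958096, held 1386 and 845 counts (0.00, −0.12 to 0.13), and it was the largest of the locus. Single weaker regions lay on either side of 0. The region chr12:33962253-33962631, downstream of the gene, held 293 and 101 counts (−0.82, −1.14 to −0.49), while chr12:33945476-33945663 held 31 and 53 counts (1.46) and a region starting at 33968200 held 97 and 124 (1.06).

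Twist2 (ENSMUSG00000007805, chr1:91801461-91848028, plus strand) had a locus ratio of −0.09 (−0.15 to −0.02) from 16 regions with 5354 WT and 3068 TCKO counts. Its start region, chr1:91800699-91802280, held 1132 and 663 counts (−0.05, −0.19 to 0.08). Like Twist1, the gene was thus close to equal at its start. The intronic region with most counts, chr1:91823219-91823903, held 1234 and 575 counts (−0.38, −0.53 to −0.24), with pileups of 81 and 56 fragments. Further regions with many counts went in opposite directions, as a region starting at 91858110 held 448 and 158 counts (−0.78) and one starting at 91816270 held 767 and 626 (0.42, 0.27 to 0.58). Among the weaker ones, chr1:91833098-91833581 held 163 and 54 counts (−0.87) and chr1:91851411-91851596 held 27 and 51 (1.60).

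The 3 T-box members were accessible at different levels and had no common direction. Tbx15 (ENSMUSG00000027868, chr3:99240381-99354259, plus strand), which is needed for normal growth of the skeleton including the skull, had 27 regions with 4796 WT and 2829 TCKO counts and a ratio of −0.04 (−0.11 to 0.02). Near its outermost start, chr3:99240641-99241696 held 473 and 312 counts (0.12, −0.09 to 0.32). Its promoter region with most counts, chr3:99253121-99253439, lay at an internal start 12899 bp into the gene and held 781 and 441 counts (−0.11, −0.28 to 0.06), and the neighbouring region starting at 99253576 held 564 and 253 (−0.44, −0.65 to −0.23). Of the 3 promoter regions only the last was lower beyond counting error, and together they held 1818 and 1006 counts (−0.14, −0.25 to −0.03). Its weak regions gave both a fall and rises past 2-fold, with 64 and 18 counts at chr3:99276390-99276570 (−1.09), 47 and 63 at chr3:99345203-99345384 (1.12), and 41 and 54 in a region starting at 99278887 (1.10).

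Tbx4 (ENSMUSG00000000094, chr11:85886422-85916097, plus strand), the hindlimb T-box gene, had no listed region within 1 kb of a start in either genotype. Its 12 regions held 1280 WT and 823 TCKO counts (0.08, −0.05 to 0.21). The region with most of them was chr11:85925093-85925750, beyond the end of the gene, which held 624 and 343 counts (−0.15). The exonic region chr11:85915306-85915598 held 52 and 98 counts, a ratio of 1.61 (1.15 to 2.11), and was one of the 4 with the whole interval past 2-fold. The lowest of those with at least 50 counts in 1 genotype, chr11:85913569-85913798, held 75 and 30 counts (−0.59).

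Tbx5 (ENSMUSG00000018263, chr5:119832668-119885219, plus strand), the forelimb counterpart of Tbx4, had 10 regions with 720 WT and 377 TCKO counts and the lowest locus ratio of the members, −0.22 (−0.40 to −0.04), at the 9.51 percentile of all loci. Its promoter region with most counts, chr5:119835148-119835472, lay at an internal start 2642 bp from the outermost one and held 86 and 58 counts (0.15, −0.33 to 0.63). The region with most counts, chr5:119866979-119867234, held 121 and 71 counts (−0.05), and the lowest, chr5:119868613-119868886, held 53 and 15 (−1.07). Few counts lay behind each of these values, and the interval of the promoter region included both 0 and the ratio of the locus.

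Pitx1 (ENSMUSG00000021506, chr13:55825051-55836192, minus strand), the homeobox gene that acts upstream of Tbx4 in the hindlimb, had the highest locus ratio of the members but among the fewest counts. Its 7 regions held 440 WT and 391 TCKO counts, a ratio of 0.55 (0.35 to 0.74), at the 94.9 percentile. The promoter region, chr13:55836899-55837073, held 48 and 63 counts (1.09, 0.57 to 1.65) with a summit in TCKO only, and overlaps the annotated gene Gm47071. The region with most counts, chr13:55855674-55855966, held 82 and 83 counts (0.73), and chr13:55847816-55847926 held 18 and 39 counts (1.78, 1.04 to 2.63). All regions were weak, and the lowest of those with at least 50 counts, chr13:55813682-55813858, held 63 and 41 (0.10).

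Shox2 (ENSMUSG00000027833, chr3:66971727-66981771, minus strand), a homeobox gene of the proximal limb skeleton and the palate, had 8 regions with 1145 WT and 781 TCKO counts and a ratio of 0.17 (0.03 to 0.30). Its own start region, chr3:66981093-66981527, lay at an internal start 461 bp into the gene and held 215 and 127 counts (−0.04, −0.36 to 0.27). The largest region of the window, chr3:66985595-66986284, lay at the start of the neighbouring gene Rsrc1, with 381 and 254 counts (0.13). The 2 regions nearest to Rsrc1 together had a ratio of 0.24. Over the 6 regions nearest to Shox2 the ratio was 0.12 (−0.05 to 0.29), which included 0. Outside its promoter regions the ratio was 0.24 (0.08 to 0.39). The rises behind it were in weak regions, of 73 and 71 counts at chr3:66998885-66999094 (0.67) and of 12 and 27 counts in a region starting at 66961468 (1.80).

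Meis2 (ENSMUSG00000027210, chr2:115863064-116065839, minus strand) had the most regions, 35, with 5184 WT and 3087 TCKO counts and a ratio of −0.03 (−0.09 to 0.03). Its start region, chr2:116065542-116066537, which also overlaps the annotated gene 2700033N17Rik, held 1005 and 527 counts (−0.21, −0.37 to −0.06), and the region next to it starting at 116066725 held 736 and 408 (−0.13). The start was thus somewhat lower in TCKO while the rest of the locus, at 0.01, was level. Within the introns, chr2:116045068-116045423 held 197 and 58 counts (−1.04) and a region starting at 116020929 held 231 and 85 (−0.72). Higher were chr2:115971420-115971653 with 73 and 91 counts (1.03) and a region starting at 115923587 with 15 and 31 (1.70).

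Set side by side, the summed regions within 1 kb of the members' own starts fell into 4 patterns. Prrx1 (0.87, 0.75 to 0.98) and Pitx1 (1.11, 0.57 to 1.65) were higher in TCKO beyond counting error, from 1113 and 1235 counts and from 48 and 63. Tbx15 and Meis2 were lower, at −0.14 and −0.21, where all promoter regions with at least 500 counts had a median of −0.11. Taken within 2 kb of a start, Tbx15 was at −0.09 (−0.19 to 0.02), which included 0, and Meis2 at −0.18 (−0.29 to −0.06). Prrx2 (0.09), Twist1 (0.01), Twist2 (−0.05), Shox2 (−0.01) and Tbx5 (0.10) had intervals that included 0, and Tbx4 had no promoter region. Outside the promoter regions, Prrx1 stood at 0.10, Pitx1 at 0.46 (0.25 to 0.67), Tbx5 at −0.29 (−0.49 to −0.09) and Prrx2 at −0.14. The value of Prrx1 rested on the upstream region beyond 1 kb, and was −0.29 (−0.35 to −0.23) over the regions other than the 3 at the start. Promoter and distal ratios were thus both above 0 beyond counting error at Pitx1 alone once that region was set aside.

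**Figure D4:**
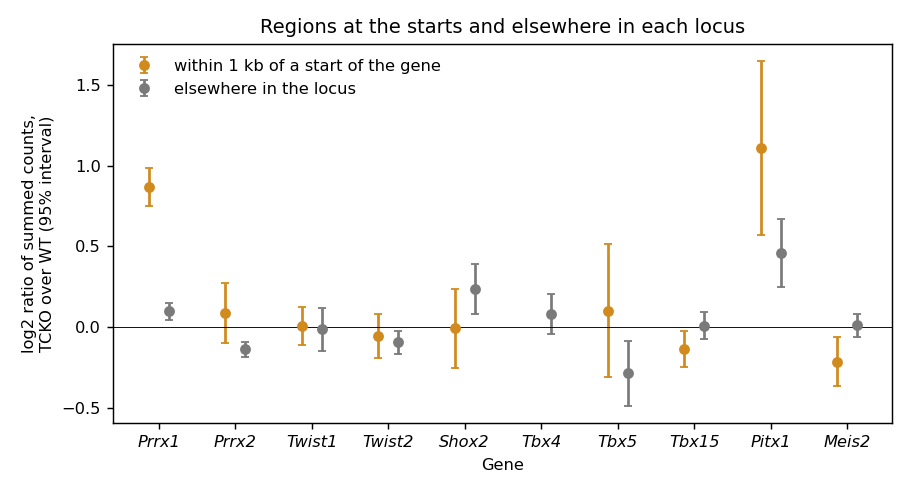
Log2 ratio of scaled TCKO to WT counts over the promoter regions of each member and over its other regions, with 95% counting intervals. Prrx1 (0.87) and Pitx1 (1.11) have the highest promoter ratios, and Tbx4 has no promoter value.

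Among regions with at least 500 counts, where counting error is small, the members had 26 regions outside promoters with a median log2 ratio of −0.17 (−0.30 to 0.04) and 10 promoter regions with a median of 0.04. Over the whole table the corresponding medians were −0.06 in 31587 regions and −0.11 in 12785. Of the 26 distal regions 11 (42.3%) had an interval wholly below 0, against 37.1% of all, and 5 (19.2%) wholly above, against 26.8% of all. The 11 lower ones were in Prrx1 (3), Prrx2 (5) and Twist2 (3), the loci with the most such regions. Distal sites of these 3 genes thus held both the lowest and the highest ratios among strongly accessible members. The highest, 2.27, was the far upstream region of Prrx1, centred 1189 bp before the start and distal only by the 1 kb limit. The highest distal ratios in Prrx2 and Twist2 were 0.64 and 0.42.

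The values on either side of the 25 kb limit of the windows covered like ranges. The outermost regions inside it lay 10750 to 24729 bp from the genes, with log2 ratios of −0.79 to 0.73, and the first regions outside it lay 25604 to 36976 bp away, with −0.88 to 1.25.

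The members' regions were richer in CpG than the table as a whole, with a median of 1.48 CpG per 100 bp against 1.02. When all regions were split into 3 equal classes by CpG density, at 0.696 and 1.55 CpG per 100 bp, the median log2 ratio of the whole table went from 0.26 in the poorest class to 0.07 in the middle and −0.07 in the richest. Among the members it was −0.03 (−0.30 to 0.13) in the poorest class (45 regions), −0.14 (−0.30 to 0.17) in the middle (50) and 0.03 (−0.05 to 0.07) in the richest (90). These intervals overlap, so the members do not show whether they follow the order of the table. As regions share genes and a library, these medians are a description.

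Short consensus words were searched on both strands in the central 200 bp of each region. The AP-1 words TGACTCA and TGAGTCA were in 15.1% of the members' regions and 18.6% of all regions, the RUNX word TGTGGT in 21.1% and 22.2%, the TWIST E-box words CATATG and CAGATG in 19.5% and 23.0%, the paired-type homeobox words TAATTA and TAATTG in 7.03% and 7.05%, the T-box words GGTGTGA and AGGTGTG, which overlap each other, in 5 of the 185 regions and in 5.34% of all, and the MEIS word TGACAG in 15.7% and 15.8%. The members were thus not rich in any of these words, their own factors' words included. Regions with an AP-1 word had a median log2 ratio of 0.44 over the whole table but 0.02 among the 28 member regions that held one. Those with the RUNX word had 0.08 over the table and −0.22 among 39 member regions. Of the 5 member regions at least 2-fold lower, 1 held the RUNX word, as did 2725 of the 11552 such regions of the table.

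Related genes were read from lists by the same windows. Of all protein-coding loci, 31.0% had an interval wholly below the median locus and 31.7% wholly above. Of 47 other transcription factors of limb and craniofacial mesenchyme, 11 had an interval wholly below the median locus and 19 wholly above, with a list median of 0.03. Their lowest was Meis3, a TALE homeobox gene related to Meis2, with 4820 WT and 1690 TCKO counts (−0.79), and their highest was Tbx22, a palate T-box gene with 53 counts in each genotype over 1 region (0.72). Tbx2, which neighbours Tbx4 and shares a region with its window, held 3949 and 2443 counts (0.02). 

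The 7 dimer partners and inhibitors of TWIST proteins were the list with the most uniform direction. All 7 loci lay below the median locus and 6 of 7 had an interval wholly below it, against 31.0% of all loci, with a list median of −0.14. They ranged from Id1, which sequesters E proteins, with 7964 and 3719 counts (−0.38), to the E protein gene Tcf3 (−0.04). These are highly accessible loci, with a median WT level of 107 counts per kb against 36.0 over all loci. Over the whole table, regions with at least 500 counts had a median log2 ratio of −0.09, and those under 100 counts 0.17. The list was not compared with loci of like level. Among the 9 Dlx and Msx homeobox genes, 2 were wholly below and 3 above, from Dlx1 (−0.15) to Msx2 (0.26).

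Of the 10 osteoblast markers 4 were wholly below the median locus and 2 above, with a median of −0.08, from Sp7 (−0.23), which encodes the osteoblast factor Osterix, to Ibsp (0.29), a bone matrix gene. Calvarial and neural crest markers gave 1 below and 3 above of 7, with a median of 0.00, from Tfap2b (−0.16) to Msx2 (0.26). Among markers of other cells, 7 of 8 endothelial loci were wholly above, with a median of 0.33 and a range from Erg (−0.34) to Sox17 (0.64), 4 of 8 macrophage or osteoclast loci were above and 3 below, with a median of 0.08 and a range from Ptprc (−0.21) to Tyrobp (0.28), 6 of 8 skeletal muscle loci were above, with a median of 0.14 and a range from Myh3 (−0.03) to Myod1 (0.48), and 1 of 6 keratinocyte loci was above, with a median of −0.02 and a range from Krt5 (−0.14) to Trp63 (0.15). Most endothelial and muscle loci were thus above the median locus, as were Shox2, Pitx1 and, through its 2 upstream regions, Prrx1. Without those 2 regions the Prrx1 locus was at −0.16 (−0.21 to −0.11). The endothelial and muscle lists had low median WT levels, 23.2 and 24.3 counts per kb against 36.0 over all loci. Shox2 (19.1) and Pitx1 (7.20) were low too. Over the whole table, regions under 100 counts had a higher median ratio (0.17) than those with at least 500 (−0.09). These lists were not compared with loci of like level. The part of endothelial, muscle or other such cells in the values of the members was not tested.

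**Figure D5:**
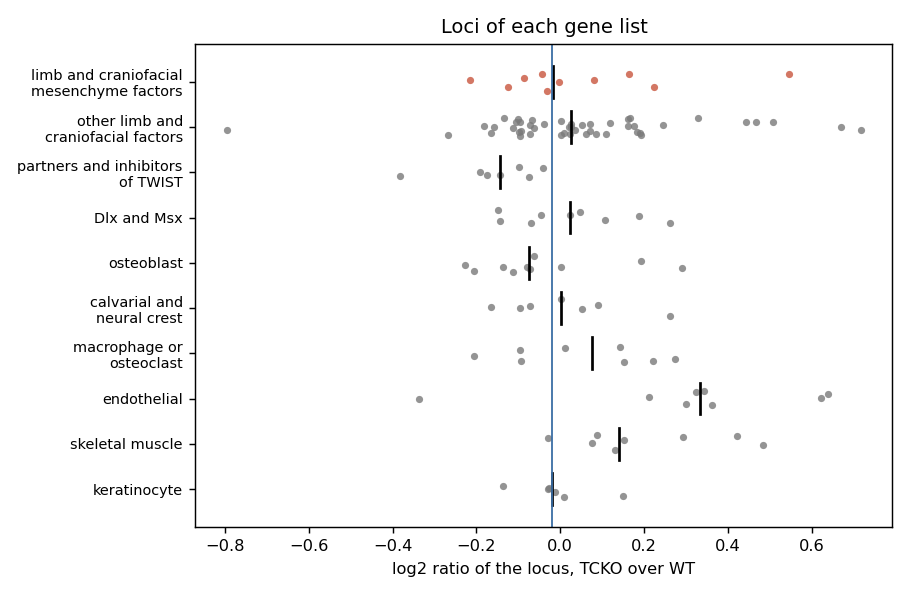
Log2 ratio of scaled TCKO to WT counts of each locus (gene and 25 kb on either side), by gene list, with the median of each list and of all 19896 protein-coding loci. The members spread on both sides of the median locus, the TWIST partners lie below it, and most endothelial loci lie above it.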

How the data were processed

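Per the labels and the study's methods, primary osteoblast ATAC-seq libraries (2 samples per genotype in the labels, 3 repeats in the protocol text) were aligned by the authors with STAR 2.7.0e to GRCm38, keeping unique reads, and the replicates of each genotype were merged. The deposited counts are raw read counts of the merged reads of each genotype over the union of both peak lists, with no normalization and no statement on PCR duplicates. The deposited peak lists give, for each MACS2 summit, the fold enrichment of the pileup over the local background together with −log10 p and −log10 q, all from the authors' call on merged reads. Columns of other samples numbered 0.

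Here TCKO counts were scaled to the WT total (factor 1.64) and 1 count was added to each genotype. A region was called at 2-fold, a cutoff the study also used, on relative enrichment. The study reported more regions closing than opening in TCKO. With the scaled counts here, 11552 regions of the table were lower and 31428 higher, and without scaling 65511 were lower and 8113 higher. Each ratio has the 95% interval that Wilson's method gives for the fraction of reads from TCKO, and medians have order-statistic intervals. Pileup and background were solved from each summit's fold and −log10 p. A promoter region lies within 1 kb of a transcript start. With 1 merged column per genotype no test was possible, edgeR's quasi-likelihood test included. Factors came from edgeR 4.0.16 (TMM) and DESeq2 1.42.0 in R 4.3.3, and all else from Python 3.11.15 with numpy 2.4.6, pandas 2.3.3 and statsmodels 0.14.6 (loess, span 0.3). The interval and pileup code was tested on simulated data.

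Named were all 10 members, the highest and lowest locus of each other list and any that shares a region with a member, and, for each member, the promoter region and the region with most counts and the largest fall and rise among regions with at least 50 counts in 1 genotype. All Prrx1 regions from 25 kb before its start were named. Other regions given by their start, and those with at least 500 counts, were chosen after their values were seen. The members and lists were chosen with earlier results of these data known. Alternatives changed the scaling, window, added count, fold, peak threshold and regions left out.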

Additional observations from a re-analysis of the deposited data

How the results depend on the processing

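No paired analysis was possible because the replicates of each genotype were merged into 1 column before deposit. The count tests of edgeR and DESeq2, and fits with 1 replicate removed, could not be made either. The number of member regions 2-fold or more below WT, 5 as reported, was 59 without scaling, 46 with the depth from the peak caller, 16 with 100 kb flanks, 30 at a fold of 1.5 and 3 without Prrx1, and 0 with 10 counts added, at a fold of 3 or with the whole interval past 2-fold. The number 2-fold or more above WT, 14 as reported, was 5 without scaling, 6 with the depth from the peak caller, 9 after loess, 9 with 10 counts added, 5 in the gene bodies alone, 38 with 100 kb flanks, 25 at a fold of 1.5, 7 at a fold of 3 and 4 with the whole interval past 2-fold. The median of the members' regions moved to −0.74 without scaling and −0.63 with the depth from the peak caller. Under those scalings the locus ratio turned negative for Prrx1 (−0.49 and −0.38), Shox2 (−0.55 and −0.44) and Pitx1 (−0.17 and −0.062), while the Prrx1 region at 163314015 to 163314260 stood at 1.26 and 1.37 and that at 163314373 to 163315426 at 1.55 and 1.66. The Prrx1 locus was also negative in the gene body alone (−0.15), without its region with most counts (−0.067) and without the 2 regions before the start (−0.16), and Twist2 was at 0.00036 in its gene body alone. The share of member regions with a summit in both genotypes fell from 56.2% to 30.8% for summits with a −log10 q of at least 5 and to 17.8% at 10. With the TMM and DESeq2 factors all 10 locus ratios and the 2 Prrx1 regions before the start kept their signs. The median of all regions went from 0.06 to −0.01 with the TMM factor. The depth limits Pitx1, Tbx5 and the weak regions most, where few counts lie behind a ratio.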
